A study of Mus musculus with 6 samples.

Results

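The 10 integrin subunit genes typical of epithelia (Itga2, Itga3, Itga5, Itga6, Itgav, Itgb1, Itgb4, Itgb5, Itgb6 and Itgb8) were examined in primary mouse kidney tubule cells with and without deletion of the ETS transcription factor gene Elf3. They were chosen by gene symbol from the 55487 genes of the deposited tables, and all 10 were among the 13755 genes with enough counts to test. Bulk RNA sequencing covered 6 libraries of renal tubular epithelial cells in primary culture, 3 per group. Control cells, labelled wild type, had received a control adenovirus, and knockout cells, labelled ELF3 knockout, an adenovirus expressing Cre recombinase (AdvCre). Loss of Elf3, Cre and the virus given thus differ together between the groups, and their effects cannot be told apart. All 6 had been stimulated with TNFα and IFNγ, so no unstimulated cells enter the comparison, and all 6 carry the label of batch 1. Mouse strain, age, the Elf3 allele and the promoter driving Cre are missing from the sources used here. Nothing in the labels says whether replicates were separate animals or cultures, so p-values measure the spread between these libraries, which may be technical.

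Integrins are cell surface receptors made of 1 alpha and 1 beta chain that tie the extracellular matrix to the cytoskeleton. The beta chain encoded by Itgb1 pairs with many alpha chains, among them those of Itga2, Itga3, Itga5, Itga6 and Itgav, whereas the product of Itgb4 pairs only with that of Itga6, in hemidesmosomes that anchor intermediate filaments. The products of Itgb5, Itgb6 and Itgb8 pair only with that of Itgav, and the Itgav heterodimers with Itgb6 and Itgb8 are known for releasing active TGF-beta from its latent complex. In kidney tubules, integrins hold epithelial cells on the basement membrane, and Itgb6 is known as a gene that injured tubular epithelium induces.

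Elf3 itself, the targeted gene, stood at 22.0 ± 2.76 CPM (SD, n = 3; counts per library of common size, after TMM scaling) in control libraries and 3.10 ± 1.12 CPM (SD, n = 3) in knockout libraries. Total estimated counts per library lay between 8961779 and 10774195. A floor of 3 counts corresponded to 0.278 to 0.335 CPM, which covers counting error only. Cultures expressed the tubular epithelial markers Cdh16, Cdh1, Epcam, Pax8, Krt8 and Krt18 in every library, while the proximal tubule phosphate transporter gene Slc34a1 had 1 count in all. Lrp2 and Cubn of the same list were detected in every library, at 12.7 to 15.5 and 6.47 to 9.50 CPM. Of the markers of other cell types, Cd3e of T lymphocytes, Tie1 of endothelium and Lum of fibroblasts had 0 counts in all 6 libraries. Others in the same lists were detected, among them Csf1r of leukocytes at 21.4 to 26.1 and 17.5 to 20.9 CPM, Flt1 of endothelium at 40.5 to 43.7 and 41.1 to 50.2 CPM and Acta2 of mural cells at 178 to 208 and 235 to 250.4 CPM (control and knockout libraries). In RNA from whole cultures, fewer cells of a type and less RNA per cell cannot be told apart.

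Upstream sequences of 3 members are shown because ETS factors such as Elf3 bind DNA with a GGAA core. Among members with a RefSeq window, these are the ones with a match to GGAAGT or CGGAAG, so they do not stand for the rest. Itgav and Itgb6 were lower and Itga3 higher in the knockout, and for Itgb6 RefSeq lists a pair of starts. All are from RefSeq (GRCm38.p6), 5′ to 3′ on the gene's strand, limited to bases before the listed start that lie outside exons annotated in GENCODE M21. Capitals mark GGAA or its reverse complement TTCC. The windows are chr2:83724147-83724396 (plus strand) for Itgav, chr11:95076802-95076964 (minus strand) for Itga3, and chr2:60722644-60722853 and chr2:60673755-60673943 (minus strand) for the upstream and downstream start of Itgb6.
Itgav: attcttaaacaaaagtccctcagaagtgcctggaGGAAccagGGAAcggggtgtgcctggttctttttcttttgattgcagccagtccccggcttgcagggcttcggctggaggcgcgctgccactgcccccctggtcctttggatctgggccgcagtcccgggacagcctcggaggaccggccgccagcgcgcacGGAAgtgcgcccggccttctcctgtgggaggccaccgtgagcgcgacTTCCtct
Itga3: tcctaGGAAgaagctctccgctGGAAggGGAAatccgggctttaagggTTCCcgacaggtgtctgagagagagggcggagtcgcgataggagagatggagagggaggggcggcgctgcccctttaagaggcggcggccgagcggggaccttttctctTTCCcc
Itgb6 upstream start: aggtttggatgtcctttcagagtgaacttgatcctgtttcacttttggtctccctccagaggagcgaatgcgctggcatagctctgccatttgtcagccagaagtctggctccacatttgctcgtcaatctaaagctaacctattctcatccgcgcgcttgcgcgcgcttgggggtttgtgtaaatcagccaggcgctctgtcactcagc
Itgb6 downstream start: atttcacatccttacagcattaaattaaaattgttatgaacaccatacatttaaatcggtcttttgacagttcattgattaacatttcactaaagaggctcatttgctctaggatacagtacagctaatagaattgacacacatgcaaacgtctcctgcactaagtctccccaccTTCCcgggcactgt

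Over 250 bases before the start, GGAA on either strand was found 4 times for Itgav, 7 times for Itga3, 8 times for Itga5, 4 times for Itgb1, 3 times for Itgb8, 1 time for Itga2, and not for Itgb5. The upstream start of Itgb6 held none and the downstream start 3. These counts cover all 250 bases, including bases of annotated exons that the printed sequences leave out. Of the 7 for Itga3 and the 3 for the downstream start of Itgb6, 5 and 1 are in the printed bases. RefSeq windows were matched for 8 of the 10 members (not Itga6 or Itgb4), and Itga3 also has a second listed start with 3 matches. Of 32851 such windows over all genes, 93.4% held GGAA. The longer GGAAGT, which contains GGAA, was in 19.7% of windows and among the members stood 2 times each before Itgav and before the downstream start of Itgb6. Those of Itgb6 lie outside its printed bases. CGGAAG, overlapping both, was in 13.6% of windows and occurred 1 time each for Itgav and Itga3, for Itga3 outside its printed bases. A match describes the letters in the window and no binding was measured.

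**Figure D1:**
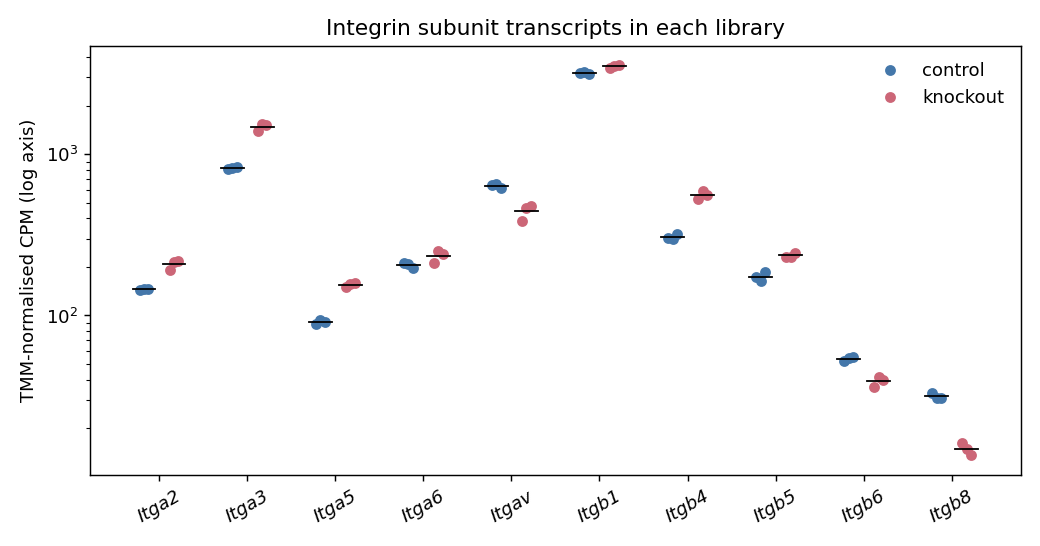
TMM-normalised CPM (log axis) of the 10 epithelial integrin subunits in each library, with 3 control and 3 knockout points per gene and a line at each group mean. Knockout points lie above the controls for Itga2, Itga3, Itga5, Itgb1, Itgb4 and Itgb5, below them for Itgav, Itgb6 and Itgb8, and overlap them for Itga6.

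Control and knockout libraries were compared to see whether transcripts of these receptors differ between the groups of cytokine-stimulated tubular cells. All 10 differed between groups at an adjusted p under 0.05 (edgeR quasi-likelihood test, Benjamini-Hochberg adjustment over all genes tested), 7 higher and 3 lower in the knockout. The alpha chains Itga2, Itga3, Itga5 and Itga6 and the beta chains Itgb1, Itgb4 and Itgb5 rose, and Itgav, Itgb6 and Itgb8 fell. Over all genes 36.6% were called, 18.3% higher and 18.3% lower, and among the 7532 genes with a mean of at least that of the lowest member (23.3 CPM) 42.7% were. A change of at least 1.5-fold was called for 4 members (Itga3, Itga5, Itgb4 and Itgb8), against 12.7% of all genes tested and 6.04% of those 7532. Groups did not overlap for 9 members, against 46.7% of all genes. The members were chosen with earlier results of these data known, so these shares are a description and not a test of the set.

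Among subunits of laminin receptors, Itga3 had the smallest p-value of the 10. Itga3 encodes the alpha chain that joins Itgb1 in the main laminin receptor of many epithelia (ENSMUSG00000001507, mm10 chromosome 11, 95044474 to 95076801, minus strand). Its level was 815, 827 and 836 CPM in control libraries and 1397, 1538 and 1523 CPM in knockout libraries. Every knockout library exceeded every control by a wide margin, and the rise was 1.80-fold (log2 fold change 0.85 ± 0.04 SE, adjusted p = 1.9e-16).

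Itgb4, the hemidesmosomal beta chain (chromosome 11, 115974709 to 116008412, plus strand), followed at nearly the same size. Its control libraries held 300.2, 296 and 322 CPM and its knockout libraries 525, 592 and 561 CPM. The groups stood apart, and the rise was 1.83-fold (log2 0.87 ± 0.05 SE, adjusted p = 3.32e-15).

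Itga6, the only alpha partner of Itgb4 (chromosome 2, 71745616 to 71858416, plus strand), changed little by comparison. It stood at 213, 209 and 198 CPM in control libraries and 213, 251 and 240.0 CPM in knockout libraries, where replicate 1 lay inside the control range. The rise of 1.14-fold (log2 0.18 ± 0.06 SE, adjusted p = 0.00935) was no longer called without knockout replicate 2 (adjusted p = 0.0771) or by limma on log2(TPM + 1) (adjusted p = 0.26), TPM being values scaled for transcript length and to a common library sum.

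Itgb1, the common beta chain (chromosome 8, 128685654 to 128733200, plus strand), had the highest TPM of the 10 in every library. It measured 3209, 3245 and 3130 CPM in control libraries and 3405, 3549 and 3556 CPM in knockout libraries. The groups did not overlap, but the rise was only 1.10-fold (log2 0.13 ± 0.04 SE, adjusted p = 0.00521), and by limma on log2(TPM + 1) it was not called (adjusted p = 0.0928).

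The collagen receptor chain Itga2 (chromosome 13, 114833081 to 114932100, minus strand) pairs with Itgb1. It was at 144, 147 and 147 CPM in control libraries and 192, 216 and 217 CPM in knockout libraries, a rise of 1.43-fold (log2 0.51 ± 0.05 SE, adjusted p = 6.16e-09) with no overlap. Itga1, the other collagen-binding alpha chain detected at more than 5 CPM and not one of the 10, fell from 202 ± 11.6 to 62.3 ± 3.06 CPM (SD, n = 3 each), by 3.24-fold (adjusted p = 5.82e-20). Counts of Itga1 were fractional in all 6 libraries and its exons overlap those of Gm49395 on the same strand, so its counts may hold reads of that gene. Per length, Itga1 and Itga2 overlapped in the controls, with 30.4 to 37.7 TPM for Itga1 and 34.6 to 35.5 TPM for Itga2, whereas in the knockout Itga1 was at 8.83 to 10.8 TPM and Itga2 at 45.0 to 53.1 TPM.

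Among the chains that recognise the RGD sequence of fibronectin and related proteins, the alpha chains moved apart. Itga5, which forms the classical fibronectin receptor with Itgb1 (chromosome 15, 103344286 to 103366763, minus strand), was at 88.2, 93.8 and 91.6 CPM in control libraries and 149.8, 157 and 158 CPM in knockout libraries. It rose 1.70-fold without overlap (log2 0.77 ± 0.06 SE, adjusted p = 2.44e-12).

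Itgav, the shared alpha chain of vitronectin and TGF-beta-activating receptors (chromosome 2, 83724397 to 83806916, plus strand), went the other way. Control libraries gave 640.3, 655 and 622 CPM, and knockout libraries 386, 462 and 477 CPM. All 3 knockout libraries were below all controls, with replicate 1 lowest. The fall was 1.45-fold (log2 -0.53 ± 0.05 SE, adjusted p = 2.99e-09).

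Partners of Itgav did not follow it as a group. Itgb8, a beta chain that activates latent TGF-beta (chromosome 12, 119158022 to 119238802, minus strand), was at 33.3, 30.7 and 30.9 CPM in control libraries and 16.3, 14.8 and 13.6 CPM in knockout libraries. It had the largest fold change of the 10, a fall of 2.13-fold (log2 -1.09 ± 0.11 SE, adjusted p = 7.72e-10), and was the only member changed by 2-fold or more, against 6.04% of all genes tested. Its counts, which summed to 949 for control and 443 for knockout libraries, were the fewest of the 10.

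Itgb6, an epithelial beta chain that likewise activates latent TGF-beta (chromosome 2, 60598292 to 60722643, minus strand), was at 52.2, 54.2 and 55.2 CPM in control libraries and 35.8, 41.3 and 39.9 CPM in knockout libraries. In counts the groups did not overlap and the fall was 1.38-fold (log2 -0.46 ± 0.08 SE, adjusted p = 1.71e-05).

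Itgb5, which with Itgav binds vitronectin (chromosome 16, 33829665 to 33949338, plus strand), rose instead. It had 172, 163 and 186 CPM in control libraries and 232, 232 and 244 CPM in knockout libraries, a rise of 1.36-fold (log2 0.44 ± 0.05 SE, adjusted p = 7.45e-08) without overlap. Itgb3, a further partner of Itgav and not one of the 10, rose 2.82-fold, from 70.4 ± 0.579 to 198 ± 14.0 CPM (SD, n = 3 each; adjusted p = 8.48e-19).

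**Figure D2:**
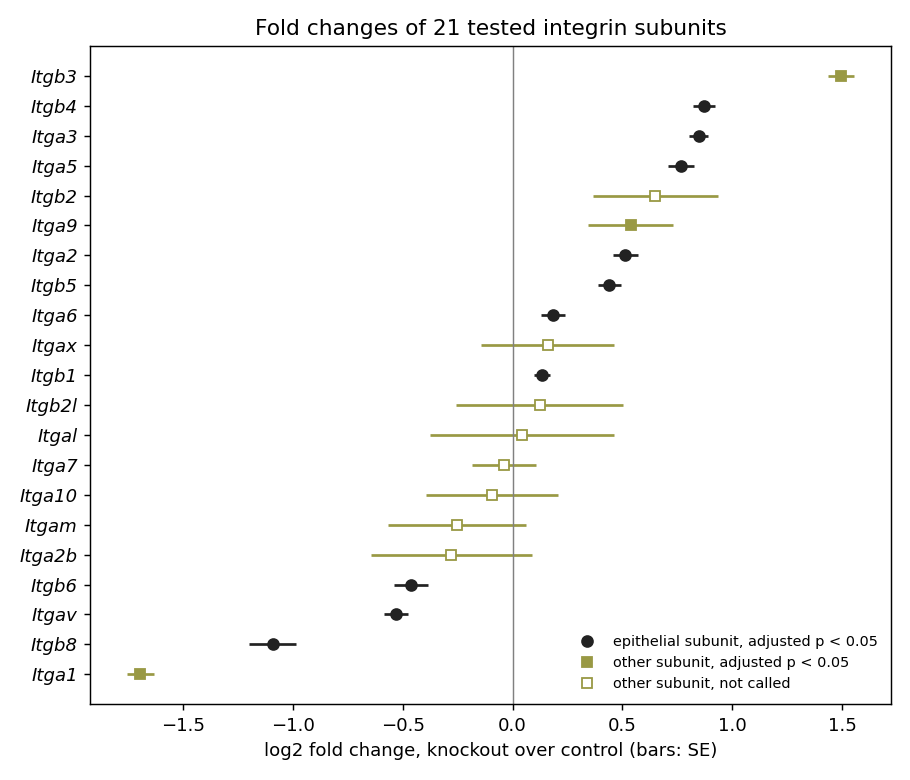
Log2 fold change (knockout over control, horizontal axis, bars are SE) of the 21 integrin subunits tested, with circles for the 10 epithelial subunits and squares for the 11 others, filled where the adjusted p was under 0.05. Itgb3 lies at the top with 1.49 and Itga1 at the bottom with -1.69, outside the range of the 10, which runs from -1.09 for Itgb8 to 0.87 for Itgb4.

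Of the 17 other integrin subunits listed, 11 had enough counts to test, and 2 rose (Itgb3 and Itga9), 1 fell (Itga1) and 8 did not pass. Their median log2 fold change was 0.04, beside 0.31 for the 10 epithelial subunits and -0.01 for all genes tested. Of the 11 other subunits 27.3% were called, against 36.6% of all genes tested. Itga9, a chain that binds tenascin and osteopontin with Itgb1, rose 1.45-fold from 5.36 ± 1.02 CPM (adjusted p = 0.0282), a call lost under DESeq2 (adjusted p = 0.0635), by limma on log2(TPM + 1) (adjusted p = 0.064), without control replicate 3 (adjusted p = 0.138) and without knockout replicate 3 (adjusted p = 0.0909). The leukocyte chain Itgb2 was at 2.81 ± 0.948 CPM in control libraries and 4.44 ± 1.21 in knockout libraries (adjusted p = 0.0746), with a higher call without control replicate 1 (adjusted p = 0.0485) or knockout replicate 3 (adjusted p = 0.0306). Itgam, Itgax, Itgal, Itga2b, Itgb2l and Itga10 averaged between 1.20 CPM (Itgal, controls) and 3.07 CPM (Itgam, controls), and Itga7, a muscle laminin receptor chain, 16.2 ± 3.64 and 15.6 ± 2.68 CPM. None of these 7 passed (adjusted p of 0.564 to 0.946). Itga4, Itga8, Itga11, Itgae and Itgb7 had between 2 and 48 counts over the 6 libraries and Itgad 0.

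Levels of different genes can be set side by side only per transcript length, which the deposited TPM values allow. In the controls Itgb1 led with 1490 ± 35.5 TPM (SD, n = 3), followed by Itga3 (309.7 ± 9.86), Itgav (202 ± 6.87), Itga6 (112 ± 3.52), Itgb4 (108 ± 15.8), Itgb5 (99.4 ± 8.04), Itga5 (36.7 ± 1.01), Itga2 (35.1 ± 0.436), Itgb6 (23.7 ± 0.91) and Itgb8 (6.50 ± 0.236). Ranges over the 3 control libraries overlapped between Itga6 and Itgb4 and between Itgb4 and Itgb5, so that these neighbours are not ordered beyond their spread. In the knockout Itgb1 (1636 ± 73.9) and Itga3 (559 ± 35.8) still led. Itgb4 came next with 193 ± 15.5 TPM, ahead of Itgb5 (145 ± 7.20), Itgav (143 ± 18.9) and Itga6 (123 ± 10.8). Among those last 3, Itgb5 overlapped Itgav and Itgav overlapped Itga6, and further down Itga2 overlapped Itgb6.

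The 5 alpha chains summed to 682, 707 and 695 TPM in control libraries and 856, 980.4 and 980.5 TPM in knockout libraries. The 5 beta chains summed to 1729, 1739 and 1715 TPM and to 1894, 2046 and 2086 TPM. Both sums were higher in all 3 knockout libraries (two-sided exact permutation test, p = 0.1 each, the smallest value that 3 against 3 libraries allow). Of the alpha sum, Itga3 made up 44.6 ± 1.12% in control libraries and 59.6 ± 0.770% in knockout libraries, while Itgav went from 29.0 ± 0.659% to 15.2 ± 0.900%. Itga6 went from 16.1 ± 0.625% to 13.1 ± 0.206%, Itga5 from 5.28 ± 0.0528% to 6.80 ± 0.339%, and Itga2 from 5.05 ± 0.0319% to 5.34 ± 0.0816%. Itgb1 held 86.2 ± 1.46% of the beta sum in control libraries and 81.5 ± 0.632% in knockout libraries, Itgb4 6.27 ± 0.962% and 9.61 ± 0.642%, and Itgb5 5.76 ± 0.505% and 7.21 ± 0.334%.

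**Figure D3:**
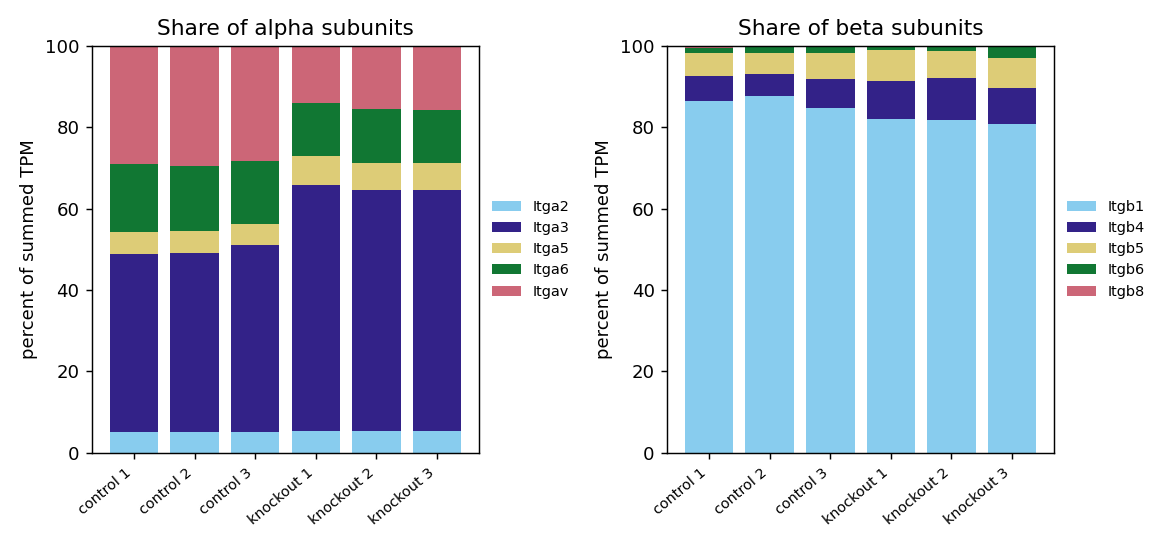
Share of each subunit in the summed TPM of the 5 alpha chains (left) and 5 beta chains (right), in percent, as 1 stacked bar per library. Itga3 widens from 43.8 to 45.9% of the alpha sum in the controls to 59.1 to 60.5% in the knockout, Itgav narrows, and Itgb6 takes 2.77% of the beta sum in knockout replicate 3 against 0.903% and 0.982% in the other knockout libraries.

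Ratios between chains within a library do not depend on scaling between libraries, and 9 were compared. Not all are between partners, since Itga3 over Itga6, Itga5 over Itgav and Itgb4 over Itgb1 set chains of the same kind side by side. TPM of Itgb4 over its partner Itga6 was 0.927, 0.825 and 1.16 in control libraries and 1.63, 1.61 and 1.47 in knockout libraries, a shift of 1.63-fold. Itgb1 over Itga6 averaged 13.3 ± 0.232 and 13.3 ± 0.616 with overlap (exact permutation p = 1). Itga3 over Itga6, alternative laminin-binding alpha chains, went from 2.77 ± 0.171 to 4.55 ± 0.119, and Itga5 over Itgav from 0.182 ± 0.00324 to 0.450 ± 0.0506, the largest shift of the 9 at 2.46-fold.

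For the beta partners, Itgb5 over Itgav was 0.503, 0.436 and 0.546 in control libraries and 1.17, 0.916 and 0.987 in knockout libraries. Itgb8 over Itgav was 0.0340, 0.0300 and 0.0330 in control libraries and 0.0265, 0.0200 and 0.0186 in knockout libraries, so Itgb8 was lower relative to its alpha partner as well. Itga2 over Itgb1 averaged 0.0236 ± 0.000584 and 0.0306 ± 0.0014, and Itgb4 over Itgb1 0.0728 ± 0.0124 and 0.118 ± 0.00724. For 8 of the 9 ratios the groups did not overlap in TPM (exact permutation p = 0.1, the smallest possible, and 0.112 adjusted over the 9), so none can pass 0.05 in this design.

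Itgb6 gave different answers in the 2 deposited tables. Its TPM was 22.8, 24.6 and 23.7 in control libraries and 17.1, 20.1 and 57.9 in knockout libraries, so that knockout replicate 3, with 413 counts against 439 in replicate 2, stood far above every other library in TPM alone. Deposited TPM divided by CPM was 0.433, 0.451 and 0.425 in the controls, 0.480 and 0.493 in knockout replicates 1 and 2, and 1.47 in replicate 3. For the other 9 members the largest of the 6 such quotients was 1.03 to 1.23 times the smallest, against 3.46 for Itgb6 (1.16 without knockout replicate 3). Among 11074 genes with a mean of at least 5 CPM the median was 1.11, and 0.325% reached the value of Itgb6. By limma on log2(TPM + 1) the fold change of Itgb6 was 0.20 in place of -0.46 and was not called (adjusted p = 0.778). Itgb6 over Itgav was 0.115, 0.117 and 0.120 in control libraries and 0.141, 0.132 and 0.373 in knockout libraries in TPM, whereas the ratio of counts was 0.0815, 0.0828 and 0.0888 against 0.0927, 0.0894 and 0.0836 with overlap. Both Itgb6 and Itgav fell in counts, and their ratio of counts differed by 0.07 on the log2 scale (exact permutation p = 0.2).

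GENCODE M21 lists 9 transcripts of Itgb6, from 236 to 4806 spliced bases. Those starting at the upstream start, Itgb6-201 and Itgb6-203, have 2995 and 3537 bases, and the 5 that start at or near the downstream start range from 249 (Itgb6-206) to 4806 (Itgb6-202). TPM divides reads by the length of the transcripts they are assigned to, and which transcripts the reads of knockout replicate 3 were assigned to was not tested, since the deposited values are per gene.

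**Figure D4:**
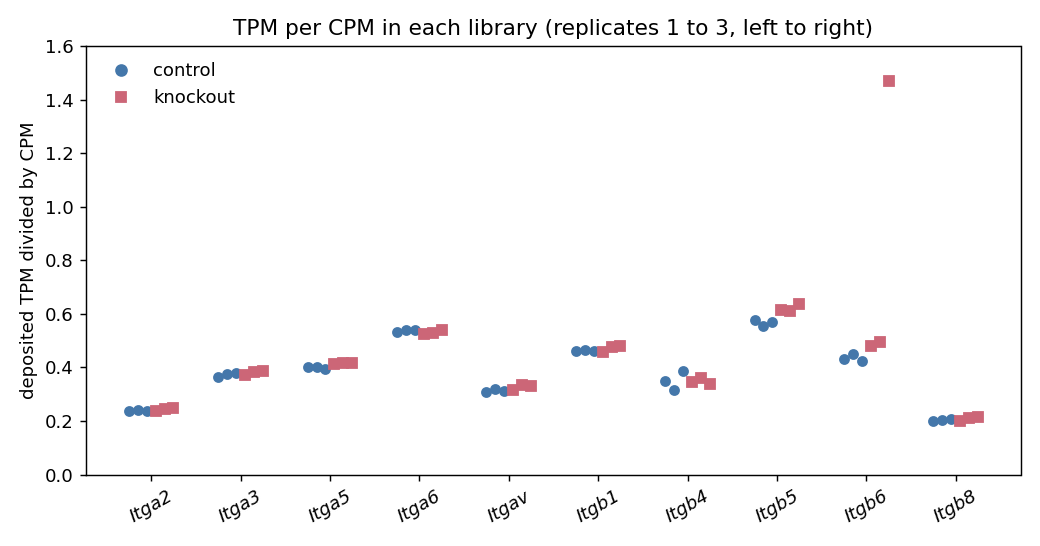
Deposited TPM divided by CPM (counts over the library total, without TMM scaling, vertical axis) for the 10 subunits, with circles for control and squares for knockout libraries, replicates in order from left to right. Points of a gene lie close together except for Itgb6, where knockout replicate 3 stands at 1.47 and the others at 0.425 to 0.493.

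Laminin chains, ligands of Itga3, Itga6 and Itgb4, moved in both directions. Lama3, which encodes an alpha chain of the laminin that hemidesmosomes bind, rose from 168 ± 2.84 to 327 ± 16.4 CPM (1.94-fold, adjusted p = 5.05e-16) and Lamb3, which encodes the beta chain of the same laminin, 1.82-fold (adjusted p = 4.39e-15). Lama1, a chain of embryonic and tubular basement membranes, fell 1.47-fold (adjusted p = 2.3e-05). Of 9 laminin genes tested, 4 rose, 4 fell and 1 did not pass, with a median log2 fold change of 0.18. The share called was 88.9%, against 36.6% of all genes tested. Lama5 also rose, and Lamb1, Lamb2 and Lamc1 fell. Exons of Lama3 overlap those of Gm29200 on the other strand, and the sources used here do not say if reads were counted by strand.

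Collagen ligands of Itga1 and Itga2 gave 5 higher, 4 lower and 3 not passing of 12 (median 0.24, 75.0% called against 36.6% of all genes). Within collagen IV of the basement membrane, Col4a2 rose 1.37-fold, and Col4a3 and Col4a5 fell 1.28-fold and 2.38-fold (adjusted p = 9.68e-09, 6.59e-07 and 2.38e-17). Exons of Col4a1 and Col4a2 overlap on opposite strands. Col5a1, a fibrillar collagen chain, rose 1.35-fold (adjusted p = 4.92e-06), a call lost by limma on log2(TPM + 1) (adjusted p = 0.165).

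For RGD and related ligands, 4 of 16 rose, 5 fell and 7 did not pass (median 0.01, 56.2% called against 36.6% of all genes). Spp1, osteopontin, an Itgav ligand secreted by injured tubules, fell from 10695 ± 562 to 4350 ± 414 CPM (2.46-fold, adjusted p = 7.68e-20), and its exons overlap those of Gm42793 on the same strand. Npnt, nephronectin, a basement membrane ligand of Itga8 in kidney development, fell 1.34-fold, and the integrin-binding protease gene Adam9 fell 1.42-fold (adjusted p = 2.09e-08 and 1.75e-08). The microfibril gene Fbn1 rose 2.14-fold (adjusted p = 7.9e-13). Fibronectin, Fn1, was at 10437, 10375 and 10614 CPM in control libraries and 9816, 10600 and 10271 CPM in knockout libraries (adjusted p = 0.482). Vtn, which encodes the vitronectin that Itgav with Itgb3 or Itgb5 binds, had 0 counts in all 6 libraries.

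**Figure D5:**
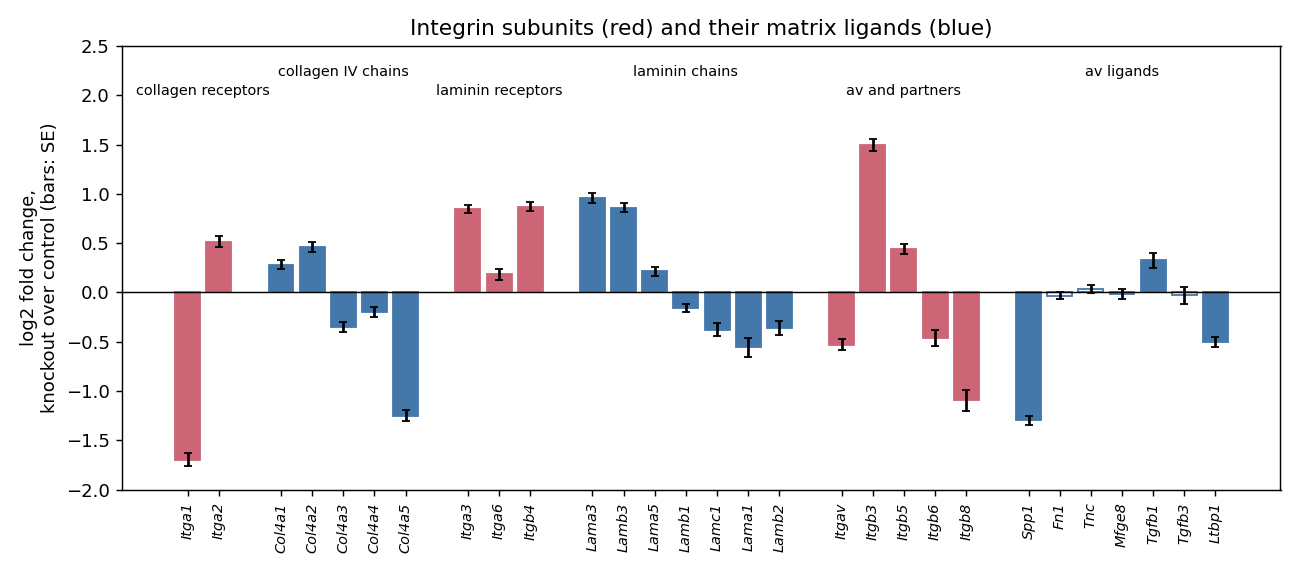
Log2 fold change (knockout over control, vertical axis, error bars are SE) of integrin subunits in red and matrix ligand genes in blue, grouped by the ligand they bind, with open bars where the adjusted p was 0.05 or more. Itga3 and Itgb4 and the chains Lama3 and Lamb3 are all above 0.6, whereas Itga1, Itgb8, Spp1 and Col4a5 are below -1.

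Genes of latent TGF-beta, the cargo of the Itgav receptors with Itgb6 and Itgb8, gave 3 higher, 1 lower and 2 not passing of 6 (median 0.08). The share called was 66.7%, against 36.6% of all genes tested. The ligand gene Tgfb1 rose 1.25-fold (adjusted p = 0.000639), and Lrrc32, which presents latent TGF-beta on cell surfaces, 1.65-fold (adjusted p = 3.63e-06). Ltbp1, which tethers the latent complex to matrix, fell 1.41-fold (adjusted p = 2.58e-09) and its relative Ltbp3 rose 1.15-fold (adjusted p = 0.00383). The call of Ltbp3 was lost by limma on log2(TPM + 1) (adjusted p = 0.0779), and that of Tgfb1 on the same scale without a filter (adjusted p = 0.0713). Of 12 genes that TGF-beta is known to induce or regulate, 6 rose, 2 fell and 4 did not pass (median 0.16, 66.7% called). Ltbp2 rose 2.44-fold, Id2 1.80-fold and the feedback inhibitor Smad7 1.45-fold (adjusted p = 1.01e-14, 2.78e-08 and 4.64e-08), and Ccn2 and Id3 were the 2 that fell. TGF-beta activity was not measured.

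Among cytoplasmic activators and adaptors, which couple integrin tails to actin, 17 of 33 rose, 4 fell and 12 did not pass. Their median log2 fold change was 0.18, and 63.6% were called, against 36.6% of all genes tested. The adaptor gene Bcar1 rose 1.42-fold, Parvb, a parvin of the ILK complex, 1.94-fold and the actin crosslinker gene Actn4 1.30-fold (adjusted p = 3.0e-10, 3.2e-09 and 4.81e-09). Tns1, a tensin of fibrillar adhesions, fell 1.44-fold (adjusted p = 3.42e-09). The kindlins, which bind beta tails to activate integrins, moved apart. Fermt1, the epithelial kindlin, was at 489, 485 and 505 CPM in control libraries and 318, 348 and 384 CPM in knockout libraries and was called lower, while Fermt2 went from 147, 156 and 154 CPM to 191, 189 and 190.4 CPM and was called higher. The kindlins were singled out after their values were seen.

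Of 7 inhibitors of integrin activation, 2 rose and 5 did not pass (median 0.10, 28.6% called against 36.6% of all genes). Dok1, an adaptor that binds beta tails, rose by a log2 fold change of 0.58 (adjusted p = 1.75e-06). Partners in hemidesmosomes and in tetraspanin complexes gave 8 higher, 1 lower and 2 not passing of 11 (median 0.21, 81.8% called). The tetraspanin genes Cd82 and Cd9 rose 1.55-fold and 1.37-fold, Cd63 fell 1.38-fold, and Dst, which encodes the hemidesmosomal plakin, rose 1.21-fold (adjusted p = 1.4e-10, 1.4e-08, 2.05e-08 and 0.000102). The call of Dst was lost by limma on log2(TPM + 1) (adjusted p = 0.0928). Col17a1, the collagen of classical hemidesmosomes, had 15 counts over the 6 libraries, too few to test, and Cd151, the tetraspanin partner of Itga3 and Itga6, was not called (293 to 332 CPM in control libraries and 293 to 322 CPM in knockout libraries).

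Cell type markers moved with the groups in part. The share called was 81.8% for tubular epithelial, 12.5% for leukocyte and 33.3% for endothelial markers. For fibroblast and mural markers it was 66.7% and for podocyte markers 75.0%, against 36.6% of all genes tested. Of 11 tubular epithelial markers tested, 5 rose, 4 fell and 2 did not pass (median log2 fold change -0.09), with summed levels of 4980 to 5150 CPM in control libraries and 6260 to 6410 CPM in knockout libraries. Without Krt8 and Krt18 the sum was lower in the knockout, at 1770 to 1830 CPM in control libraries and 1570 to 1620 CPM in knockout libraries. Krt18 and Krt8, keratins of simple epithelia, rose 1.64-fold and 1.37-fold, and the injury marker Havcr1 fell 2.34-fold (adjusted p = 2.33e-15, 5.96e-11 and 2.87e-17). Of 8 leukocyte markers tested, 1 fell, Cd14, from 25.2 ± 1.52 to 7.47 ± 0.365 CPM (adjusted p = 1.26e-12), and 7 did not pass (median -0.10), with sums of 66.0 to 71.1 and 42.5 to 47.8 CPM. Of 3 endothelial markers tested, 1 rose, Kdr, from 1.45 ± 0.447 to 8.07 ± 1.32 CPM (adjusted p = 6.51e-09), the median was 0.93 and sums were 43.0 to 46.3 and 50.9 to 59.7 CPM, mostly Flt1, while Pecam1 and Cdh5 had 6 and 10 counts over all libraries.

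Of 6 fibroblast and mural markers tested, 3 rose (Acta2, Pdgfra and Col1a1), 1 fell (Col1a2) and 2 did not pass (median 0.19), with sums of 254 to 289 and 318 to 329 CPM. Acta2 rose 1.27-fold (adjusted p = 9.87e-06), and each of the other 3 calls was lost when any of several libraries was left out. That of Pdgfra was lost without control replicate 3 or knockout replicate 3 (adjusted p = 0.0648 and 0.0638), that of Col1a1 without replicate 2 or 3 of either group (adjusted p of 0.0533 to 0.144), and that of Col1a2 without any library but knockout replicate 3 (adjusted p of 0.051 to 0.175). Of 4 podocyte markers tested, 2 rose (Podxl 2.30-fold and Synpo 1.53-fold, adjusted p = 1.95e-16 and 2.57e-08), 1 fell (Wt1, adjusted p = 0.0498, lost under DESeq2 at 0.127 and without any 1 library at 0.0649 to 0.2) and 1 did not pass (median 0.26), with sums of 158 to 163 and 283 to 321 CPM. What part differences in cell makeup have in the integrin values was not tested.

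Itgb8, the member with the largest fold change, was compared with 11071 genes of at least 5 CPM over the 6 libraries. Maoa and Keg1 were among the 3 genes whose log2 CPM was most like it, with Pearson r of 0.999 and 0.999 as a description across 6 libraries that fall into 2 groups. Maoa, a monoamine oxidase gene, was at 21.8, 20.0 and 20.0 CPM in control libraries and 9.87, 8.37 and 8.11 CPM in knockout libraries. Both share with Itgb8 lower levels in every knockout library, which by itself gives a high r.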

How the data were processed

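RNA of 6 libraries (3 control, 3 knockout, grouped by sample title) was enriched for mRNA and sequenced, per the labels' protocols. Named in the submitters' processing notes are Salmon, featureCounts and mm10, with no version or role. Estimated counts were deposited by the authors per gene without scaling, 93.3% of nonzero values being whole within 1e-06. TPM values were normalised by the authors to a fixed sum per library. The sources used here give no annotation release, strand setting or read filter.

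Counts were rounded, filtered with filterByExpr (13755 genes kept), scaled with TMM and tested with edgeR 4.0.16 (quasi-likelihood, R 4.3.3, Benjamini-Hochberg over all genes, threshold 0.05, no covariate). SE is the absolute log2 fold change divided by the square root of F. The biological coefficient of variation was 5.35%. On simulated counts for 13755 genes, 50 were changed at each fold, with the same biological variation set for every gene. Recovery there was 48% at 1.25-fold, 77.6% at 1.5-fold and 92% at 2-fold, with 10 false calls. Recovery in the libraries themselves, where 36.6% of genes were called, was not tested. Members and the 14 other lists were chosen with earlier results of these data known. By rule, named genes were the members, other tested subunits, Elf3 and up to 4 called genes of smallest p per list. The rule also names the 3 genes most correlated with the member of largest fold change. Further list genes were named outside this rule, among them Fn1, Cd151, Ccn2, Id3, Lama5, Csf1r, Flt1 and the kindlins. Some genes that the rule names are not reported here, though list counts, sums and medians include them. Alternatives were RLE factors, library totals, DESeq2 1.42.0, limma-voom (limma 3.58.1), other filters, a replicate block, limma on log2(TPM + 1) and log2(TPM + 0.1), which understates changes of low genes, and leaving out each library.

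Positions are from GENCODE M21 on mm10, and sequences from RefSeq. Exons of Itgav and Itgb4 overlap those of Gm13684 and B230344G16Rik, neither tested. By blastn 2.17.0 at 95% identity over at least 100 bases, Itga6 matched 326 bases of Gm29397 (0 counts) and Itgb5 343 bases of Gm38317 (at most 1.06 counts in a library). These 2 members had fractional counts in 2 libraries each.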

Additional observations from a re-analysis of the deposited data

How the results depend on the processing

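All 10 members kept their direction in the 13 alternatives based on counts, and all kept their call there except Itga6 without knockout replicate 2, so that leaving out single libraries gave 6 to 7 members higher and 3 lower. On TPM 5 members were called higher and 2 lower, since Itga6, Itgb1 and Itgb6 were not called. Itgb6 reversed on TPM, with log2 fold changes of 0.195 for log2(TPM + 1) with and without a filter and 0.196 for log2(TPM + 0.1), and its cause was not tested. TPM fits called fewer genes, 1421 higher and 1291 lower for log2(TPM + 1), 1412 and 1304 for log2(TPM + 0.1), and 1195 and 980 without a filter, against 2516 and 2512 in counts. In the lists beside the members, 61 genes rose and 27 fell in counts. There were 41 higher and 17 lower on log2(TPM + 1) and on log2(TPM + 0.1), and 36 higher and 16 lower without a filter. Without a filter on TPM, Smad7 and Actn4 were among further genes that lost their calls (adjusted p = 0.0747 and 0.0519). Leaving out single libraries gave 2161 to 2583 genes higher and 2031 to 2426 lower, and 54 to 64 and 23 to 25 in the lists.

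The ratio of Itgb1 to Itga6, at a log2 difference of 0.000193, reversed to -0.048 as a ratio of counts and ranged from -0.036 to 0.0288 without single libraries. Uncalled subunits at low counts also reversed. Without single libraries, Itgam ranged from -0.454 to 0.12, Itgax from -0.0168 to 0.326, Itgb2l from -0.0457 to 0.428, Itga10 from -0.261 to 0.0255, Itga7 from -0.181 to 0.141 and Itgal from -0.161 to 0.355. Itga10 gave 0.056 on log2(TPM + 0.1) and 0.0215 on log2(TPM + 1) with and without a filter, and Itgal -0.0103 on log2(TPM + 1) without a filter. Same-numbered libraries of the 2 groups showed little shared deviation (r = -0.0122, 0.0471 and 0.032). Such values cannot exclude that they shared an animal or preparation, so whether the numbers pair them is unknown. With the replicate block 2561 genes rose and 2585 fell, with the same 7 and 3 counts of members. Sums and ratios were also put to a sign-flip test by replicate number, the smallest p of which is 0.25. With equal groups its mean difference equals the main one, so it could not change direction. Depth limits the subunits below about 5 CPM.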
